A study of Mus musculus with 12 samples.

Results

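Hearts of diabetic mice treated with the monoamine oxidase (MAO) inhibitor pargyline (Diabetic+Pargyline, D + P) were compared with hearts of healthy mice given neither streptozotocin nor pargyline (Control, C), which asks what still separates a treated diabetic heart from a healthy one. The groups were taken from the labels and hold 3 arrays each, so 6 of the 12 arrays of the series. All mice were male C57BL6/J, labelled as 5 months old, and heart muscle of 1 mouse was hybridised per array. The D + P mice had received streptozotocin, a toxin of the pancreatic β cells that make insulin (50 mg/kg on each of 5 days), and pargyline over 12 weeks (50 mg/kg each day). Mice without pargyline were given its vehicle instead, and whether C mice also had the buffer used for streptozotocin is not given in the sources used here. The 2 groups therefore differ in streptozotocin and in pargyline at once, and a difference between them belongs to the pair of treatments. The other groups are diabetic mice without pargyline (D) and healthy mice with pargyline (C + P), which serve here only for side-by-side values. Diabetes in this model is insulin deficiency caused by a toxin, and whole heart muscle was sampled, so the signal is that of all its cell types together.

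The working heart draws most of its energy from fatty acids, and when insulin is lacking it takes up less glucose and more fat. Fatty acids then activate the nuclear receptor PPARα, whose target genes handle, burn and export lipid, while FoxO factors, which insulin normally restrains, become active. A strained heart also turns back on genes of the fetal heart, among them natriuretic peptides and the slow β-myosin. MAO breaks down amines such as noradrenaline in the outer mitochondrial membrane and releases hydrogen peroxide as it does so.

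Group and slide were not independent in this comparison. The 3 C arrays were on slide 1, in the upper row, together with the 3 D arrays in the lower row. The 3 D + P arrays were on slide 2, in the lower row, together with the 3 C + P arrays in the upper row, and the slides were scanned separately. Thus slide, scan and row on the one hand, and D + P against C on the other, cannot be told apart. Only 2 diabetic-to-healthy comparisons stayed on 1 slide: D against C, given below as the value within slide 1, and D + P against C + P, given as the value within slide 2. The scanner software called 28472 to 29231 spots well above background on the C arrays and 25157 to 27930 on the D + P arrays, groups that did not overlap (two-sided exact permutation test, p = 0.1, the smallest that 3 against 3 arrays can give). Spike-in RNA, added in equal amounts to every sample, was 0.47 log2 lower on the D + P arrays before normalisation (p = 0.1 in the same exact test) and 0.01 lower after scaling to the 75th percentile (p = 1, exact). The D + P arrays were also less alike, with a median standard deviation per probe of 0.278 log2 against 0.168 among the C arrays. One of them, D + P replicate 1, stood nearer to C than the others for many of the genes below. Its repeated spots had a median coefficient of variation of 25.7%, and those of D + P replicate 3 had 19.1%, against 8.77% to 15.8% on the C arrays. The within-slide values also rest on uneven arrays. D replicate 1 had 35.3% with 23556 spots well above background, and C + P replicate 1 had 22.3% with 25164 spots.

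None of the 30857 tested probes separated D + P from C at the threshold (limma, Benjamini-Hochberg adjusted p under 0.05, 0% called), and the smallest adjusted p was 0.0842. At an unadjusted p under 0.05, 855 probes (2.77%) were higher and 1001 (3.24%) lower in D + P. The 3 D + P arrays lay wholly above the 3 C arrays for 2770 probes (8.98%) and wholly below them for 2597 (8.42%). The fit had limited precision, since a probe's difference carried a median standard error of 0.265 log2 and a median 95% confidence half-width of 0.586. Without D + P replicate 1, 5 probes passed, 4 of them higher and 1 lower in D + P, and without D + P replicate 3, 1 probe passed. The probe that was lower is unnamed and is the same in both cases. The methods' t-test gave 0 calls after Benjamini-Hochberg adjustment and 2834 at an unadjusted p under 0.05. Genes below are therefore described by their values, and none of them passed the threshold unless a setting is named.

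Nppa, which encodes atrial natriuretic peptide, had the smallest p of all probes. Its log2 signal was 12.25, 12.32 and 12.00 on the C arrays and 13.74, 13.89 and 13.61 on the D + P arrays (probe at mm9 chr4:147375892-147375951). The groups were far apart, with a difference of 1.56 log2 or 2.95-fold (95% CI 1.15 to 1.97, adjusted p = 0.0842), and the other Nppa probe gave 1.5 (adjusted p = 0.247). Within slide 1, D stood 1.74 above C (adjusted p = 0.0278), and within slide 2, D + P stood 0.74 above C + P (adjusted p = 0.32). The C + P arrays, on the slide of D + P, were 0.82 above C. Among the genes that process or sense the peptide, Corin, the protease that cuts the precursor, was 0.51 higher in D + P (adjusted p = 0.825), and Npr3, the clearance receptor, was 0.22 higher. Nppb, which encodes the related B-type peptide, read 13.35, 13.21 and 13.42 in C and 13.16, 14.09 and 14.25 in D + P. Its groups overlapped because D + P replicate 1 lay below every C array, and the difference was 0.51 (95% CI −0.29 to 1.31), or 1.07 by its other probe. Of the 8 tested natriuretic genes, 7 were higher in D + P, with a median of 0.18, or 0.37 without D + P replicate 1. Other atrial markers did not follow Nppa: of 7 tested markers, Nppa included, 2 were higher, the other being Nr2f2, a nuclear receptor that vessels also express, at 0.48. Myl7 and Myl4, the atrial myosin light chains, were 0.24 and 0.29 lower with overlapping arrays, and Bmp10 and Sln were not well above background on any of the 6 arrays.

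Nmrk2, a kinase that feeds nicotinamide riboside into NAD synthesis in muscle, had the next smallest p. Its log2 signal was 7.14, 7.28 and 7.17 in C and 8.76, 8.76 and 8.60 in D + P (mm9 chr10:80662033-80662092). The arrays of each group were close together, and the difference was 1.51 log2 or 2.85-fold (95% CI 1.11 to 1.91, adjusted p = 0.0842). Within slide 1, D was 1.85 above C (adjusted p = 0.0253). Within slide 2, D + P was only 0.12 above C + P (adjusted p = 0.904), and the healthy pargyline-treated hearts were themselves 1.39 above C (adjusted p = 0.0398), a comparison that also crosses slides. The distance of D + P from C for Nmrk2 is thus close in size to that of C + P, and the part of pargyline and the part of the slide in it were not tested. Of 15 tested genes of NAD metabolism, 10 were higher in D + P, with a median of 0.06.

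Promoter sequences of Nppa and Nmrk2, the genes with the smallest p, and of Txnip and Pdk4, the glucose- and fat-responsive genes described next, are shown for the 250 bases before the annotated RefSeq start (GRCm38.p6). Capitals mark matches on either strand to the TATA core TATAAA, the GATA factor letters GATAA, the FoxO letters GTAAACA, the general promoter element CCAAT and a pair of CACGNG boxes 5 bases apart. The windows lie at chr4:148000472-148000721 (forward strand), chr10:81202038-81202287 (reverse strand), chr3:96557707-96557956 (forward strand) and chr6:5496279-5496528 (reverse strand).
Nppa: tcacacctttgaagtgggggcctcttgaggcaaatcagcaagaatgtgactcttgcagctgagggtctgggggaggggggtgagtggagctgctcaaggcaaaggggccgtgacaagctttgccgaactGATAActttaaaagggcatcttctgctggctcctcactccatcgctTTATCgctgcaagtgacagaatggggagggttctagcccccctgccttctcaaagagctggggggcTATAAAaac
Nmrk2: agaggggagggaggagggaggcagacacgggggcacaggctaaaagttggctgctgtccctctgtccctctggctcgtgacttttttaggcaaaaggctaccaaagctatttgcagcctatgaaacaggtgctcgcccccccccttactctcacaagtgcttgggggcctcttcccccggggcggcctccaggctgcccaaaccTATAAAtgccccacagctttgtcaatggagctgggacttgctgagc
Txnip: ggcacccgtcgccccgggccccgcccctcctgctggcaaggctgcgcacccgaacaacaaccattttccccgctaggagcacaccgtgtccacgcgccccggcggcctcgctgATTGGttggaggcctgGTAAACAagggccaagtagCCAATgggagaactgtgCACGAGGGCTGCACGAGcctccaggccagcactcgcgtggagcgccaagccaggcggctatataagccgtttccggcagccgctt
Pdk4: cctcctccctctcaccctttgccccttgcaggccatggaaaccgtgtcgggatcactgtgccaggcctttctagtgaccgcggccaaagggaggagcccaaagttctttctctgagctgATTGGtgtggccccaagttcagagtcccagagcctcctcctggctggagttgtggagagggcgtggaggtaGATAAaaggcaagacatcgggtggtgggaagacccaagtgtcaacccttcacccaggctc

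Nppa and Nmrk2 each held TATAAA, the core of a TATA box, which 12.4% of all 32817 RefSeq windows of this length hold. Nppa also had 2 matches to GATAA, the letters bound by GATA factors, found in 22.6% of all windows. The Txnip window held the paired boxes that glucose-sensing factors bind, a pattern present in 15 windows or 0.0457% of all, and 1 match to the FoxO letters GTAAACA, present in 3.16%. Pdk4 held GATAA and CCAAT, the latter in 33.8% of all windows. A repeat of AGGNCA spaced by 1 base, the usual PPAR element, and CACGTG were searched too and matched none of these 4 windows. Among 17 FoxO targets with 19 windows, GTAAACA was in 2 windows (10.5%), and the PPAR repeat was in 0 of the 23 windows of 17 PPAR targets, beside 0.338% of all windows. These are letter matches in short windows and no evidence of binding. Of the 7 genes looked up, 6 had a window.

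**Figure D1:**
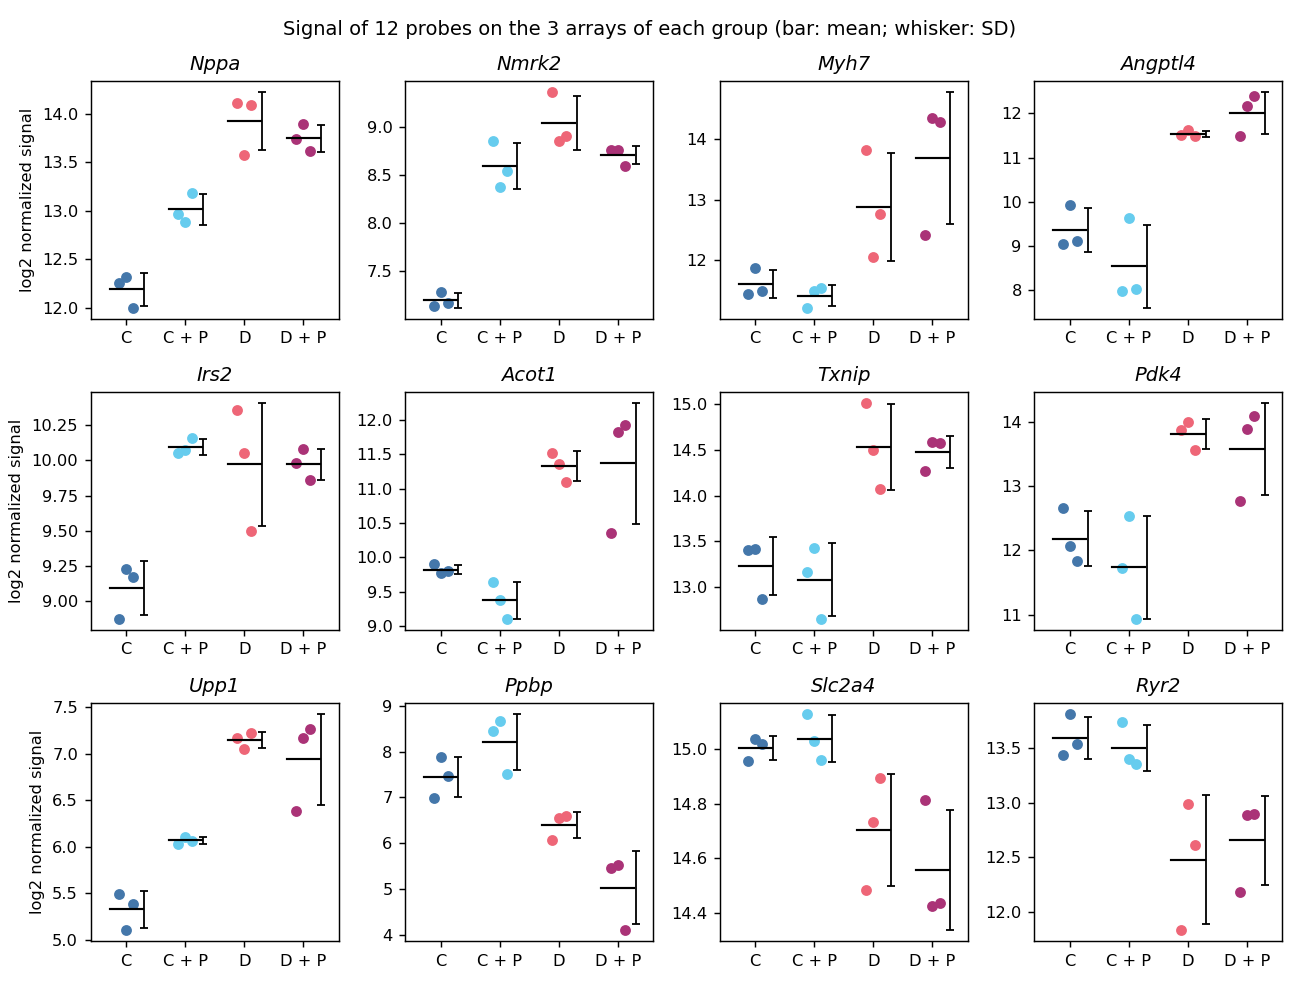
Log2 normalised signal (y axis, separate scale per panel) of 12 probes on the 3 arrays of each of the 4 groups; points are arrays, bars are means and whiskers are SD. In D + P the 3 arrays of Nppa sit between 13.61 and 13.89, above all C arrays, whereas for Acot1, Myh7 and Pdk4 D + P replicate 1 lies nearest to C.

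Of the pathway lists, leaving aside the short list of quantitative PCR genes, the PPAR targets of lipid handling had the highest median, 0.48, whereas fatty acid oxidation and lipogenesis, at 0.11 and 0.12, lay below the imprinted, FoxO and integrated stress response lists described further on. Angptl4, a secreted inhibitor of lipoprotein lipase and a target of PPAR, read 9.04, 9.94 and 9.11 in C and 11.48, 12.16 and 12.40 in D + P (mm9 chr17:33911880-33911939). All 3 D + P arrays were higher, by 2.65 log2 or 6.29-fold on average (95% CI 1.70 to 3.6, adjusted p = 0.247). Within slide 1, D was 2.18 above C (adjusted p = 0.216), and within slide 2, D + P was 3.47 above C + P (adjusted p = 0.0254). Angptl4 thus differed from the healthy group of the same slide on slide 2, past the threshold. That group, C + P, read 7.97, 9.63 and 8.03, which is 0.82 below C on average, so the 3.47 includes this lower level. Acot1, a cytosolic enzyme that splits fatty acyl-CoA, read 9.91, 9.77 and 9.80 in C and 10.35, 11.81 and 11.93 in D + P, a difference of 1.54 (95% CI 0.76 to 2.32, adjusted p = 0.48). The lowest D + P array of Acot1 was replicate 1, yet it lay above every C array. Without it the difference was 2.05 (adjusted p = 0.0181). Within slide 1 Acot1 was 1.5 above C, and within slide 2 D + P was 1.99 above C + P.

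Over the PPAR target list, 15 of 19 tested genes were higher in D + P, against 48.9% of all 16453 tested genes, and none passed the threshold. The list median was 0.48 log2, or 0.62 without D + P replicate 1, beside −0.01 over all genes. The arrays did not overlap for 8 of the 19 members, all higher in D + P, where 1500 of all 16453 genes were wholly higher and 1553 wholly lower. Among these 8 were Lipe, a lipase of stored fat, at 0.78 and Plin2, a coat protein of lipid droplets, at 0.58. Members were far from uniform: Lpl and Fabp3, which supply and carry fatty acids, were 0.17 and 0.10 lower, and Acsl1, which activates them, was 0.37 lower (95% CI −1.13 to 0.40). Fat cell markers had summed signals of 40299 to 45446 in C and 48047 to 64213 in D + P, which did not overlap, although 2 of 6 tested were higher and the median of −0.10 ran from −0.25 to 0.05 over 15 alternatives. The brightest of the higher ones, Fabp4, a lipid carrier that capillary endothelium also makes, was 0.42 higher by 1 of its 2 probes and 0.51 lower by the other, and the defining markers Adipoq and Plin1 were not well above background on any of the 6 arrays. In fatty acid oxidation 17 of 27 genes were higher, with a median of 0.11 that ran from 0.01 to 0.16 over the same 15 alternatives. Ech1, an enoyl-CoA isomerase, was higher by 0.56 (95% CI 0.22 to 0.91, adjusted p = 0.569), and Hadha, a subunit of the trifunctional protein, by 0.56 (95% CI 0.18 to 0.93, adjusted p = 0.665). The 3 D + P arrays were above the 3 C arrays for both genes. In lipogenesis 12 of 18 genes were higher, with a median of 0.12, which was 0.07 under 75th percentile scaling and 0.20 after normexp background correction.

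Pdk4 and Txnip belong to the PPAR list and also bear on glucose use. Pdk4, the kinase that shuts pyruvate dehydrogenase, read 12.66, 12.07 and 11.83 in C and 12.77, 13.89 and 14.09 in D + P. One array lowered this value: D + P replicate 1 was within 0.11 of the highest C array, and the difference was 1.40 with it (95% CI 0.44 to 2.35, adjusted p = 0.684) and 1.81 without it (adjusted p = 0.346). Txnip, an inhibitor of thioredoxin and of glucose uptake, read 13.40, 13.42 and 12.87 in C and 14.27, 14.58 and 14.57 in D + P. Its 2 groups were apart by 1.24 (95% CI 0.63 to 1.86, adjusted p = 0.478), close to the 1.30 within slide 1 and the 1.39 within slide 2. Slc2a4, the insulin-responsive glucose transporter GLUT4, read 14.96, 15.04 and 15.02 in C and 14.81, 14.43 and 14.44 in D + P. It was lower on each D + P array, by 0.44 (95% CI −0.80 to −0.09, adjusted p = 0.743), and 1 of its 2 probes was higher. Of 24 genes of glucose uptake and glycolysis, 17 were not higher in D + P, and their median of −0.08 turned to 0.02 with normexp and to 0.03 without D + P replicate 2, and was −0.18 without D + P replicate 1.

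FoxO targets stood mostly above C. Of 19 tested, 17 were higher, with a median of 0.28. The arrays of 7 were wholly higher and of 1 wholly lower, where 1500 of all 16453 genes were wholly higher and 1553 wholly lower. Pdk4 and Txnip are members of both this list and the PPAR list. Irs2, the adaptor that couples the insulin receptor to AKT, read 8.87, 9.23 and 9.17 in C and 9.98, 10.08 and 9.86 in D + P, 0.88 apart (95% CI 0.42 to 1.35, adjusted p = 0.498). D was likewise 0.88 above C, yet D + P was 0.12 below C + P, since the C + P arrays were 1.01 above C. The muscle ubiquitin ligases of the list did not stand out, with Trim63 0.12 higher (95% CI −0.47 to 0.70) and Fbxo32 0.27 lower (95% CI −0.72 to 0.18). In the wider list of insulin, IGF1 and AKT signalling, 14 of 35 genes were higher and the median was −0.04, with −0.15 to 0.02 over the alternatives. Pik3r1, the regulatory subunit of phosphoinositide 3-kinase, was 0.62 lower there (95% CI −1.10 to −0.14, adjusted p = 0.734).

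Myh7, the slow β-myosin heavy chain of the fetal and the strained heart, read 11.44, 11.87 and 11.48 in C and 12.42, 14.35 and 14.29 in D + P (mm9 chr14:55589581-55589640). All 3 D + P arrays were higher, but unevenly, and the difference of 2.09 or 4.26-fold had a wide interval (95% CI 0.93 to 3.25, adjusted p = 0.539). Without D + P replicate 1 it was 2.73 (adjusted p = 0.115). The values were 1.28 within slide 1 and 2.28 within slide 2, and the other Myh7 probe gave 0.95. Its adult counterpart Myh6 was 0.13 higher (95% CI −0.27 to 0.53), at a signal near the top of the scale in all groups. Acta1, the skeletal α-actin that often accompanies the fetal programme, was 0.88 lower (95% CI −1.79 to 0.02, adjusted p = 0.838). Of the 19 cardiac stress and fetal genes, 10 were higher in D + P and the median was 0.03, a value that changed sign between settings (−0.04 to 0.05).

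Genes of contraction and calcium handling were more often lower. In the sarcomere and Z-disc list, 10 of 29 were higher, with a median of −0.17, or −0.05 without D + P replicate 1. That median was 0.03 within slide 1 and −0.04 within slide 2. The arrays of 10 members were wholly lower and of 3 wholly higher, where 1553 of all 16453 genes were wholly lower and 1500 wholly higher. Ryr2, the channel that releases calcium from the sarcoplasmic reticulum, read 13.44, 13.81 and 13.54 in C and 12.18, 12.89 and 12.90 in D + P. Every D + P array was lower, by 0.94 on average (95% CI −1.61 to −0.28, adjusted p = 0.693), with −1.12 within slide 1 and −0.85 within slide 2. Its 3 probes ran from −0.94 to −0.17. Of 24 calcium handling genes, 7 were higher, with a median of −0.10, and −0.03 with normexp or with all probes of a gene averaged. Gja1, the gap junction protein the connexin of ventricular muscle, was 0.70 lower (95% CI −1.35 to −0.05, adjusted p = 0.805), though 2 of its 5 probes were higher. Kcne1, a potassium channel subunit, read 7.07, 6.92 and 6.94 in C and 7.45, 8.47 and 7.98 in D + P. It stood 0.99 higher (95% CI 0.47 to 1.5, adjusted p = 0.498), with 1.06 within slide 1 and 0.91 within slide 2.

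**Figure D2:**
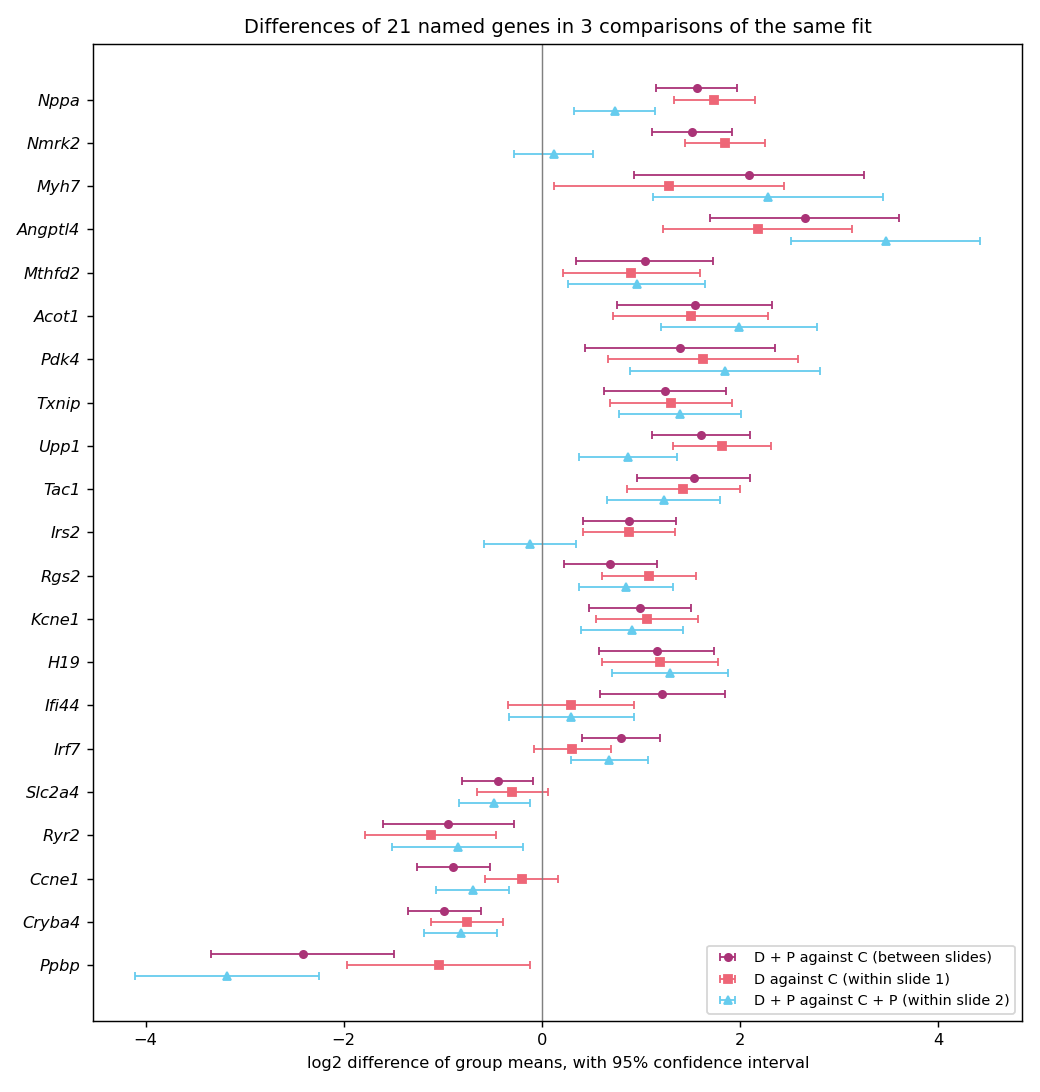
Log2 difference of group means (x axis) of 21 genes in D + P against C, in D against C (within slide 1) and in D + P against C + P (within slide 2); whiskers are 95% confidence intervals. Angptl4, Acot1 and Txnip lie above 0 in all 3 comparisons, whereas Nmrk2 and Irs2 lie near 0 in D + P against C + P, at 0.12 and −0.12.

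In 4 further mitochondrial lists a smaller share of genes was higher than the 48.9% of all genes, unlike in fatty acid oxidation above. In the tricarboxylic acid cycle 4 of 18 genes were higher, with a median of −0.14 (−0.08 without D + P replicate 1 and −0.09 under 75th percentile scaling). The list median was −0.01 within slide 1 and −0.04 within slide 2. Mdh1, the cytosolic malate dehydrogenase, read 15.99, 16.06 and 15.93 in C and 15.62, 15.65 and 15.20 in D + P, 0.50 lower (95% CI −0.87 to −0.14, adjusted p = 0.716), and its 3 probes ran from −0.50 to −0.03. Within the slides Mdh1 differed by −0.02 on slide 1 and −0.08 on slide 2, while C + P, which has the slide and the drug of D + P, was 0.43 below C. In oxidative phosphorylation 22 of 65 were higher, and the median of −0.06 became 0.02 under 75th percentile scaling. Cycs, which encodes cytochrome c, was 0.86 lower (95% CI −1.58 to −0.15, adjusted p = 0.754), with its other probe at −0.33, and by −0.18 and −0.36 within the slides. In branched-chain amino acid breakdown 2 of 18 were higher, with a median of −0.20, which lay between −0.25 and −0.15 over 15 alternatives of scaling, background correction, probe choice and arrays left out. Dbt, the core subunit of the branched-chain ketoacid dehydrogenase, read 9.25, 9.28 and 9.06 in C and 7.70, 8.77 and 8.98 in D + P, so that its difference of −0.71 rested largely on D + P replicate 1 (95% CI −1.70 to 0.27). Of 72 mitochondrial ribosomal proteins, 18 were higher, with a median of −0.12, or 0.00 with normexp, whereas 41 of 63 cytosolic ribosomal proteins were higher, with a median of 0.07.

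**Figure D3:**
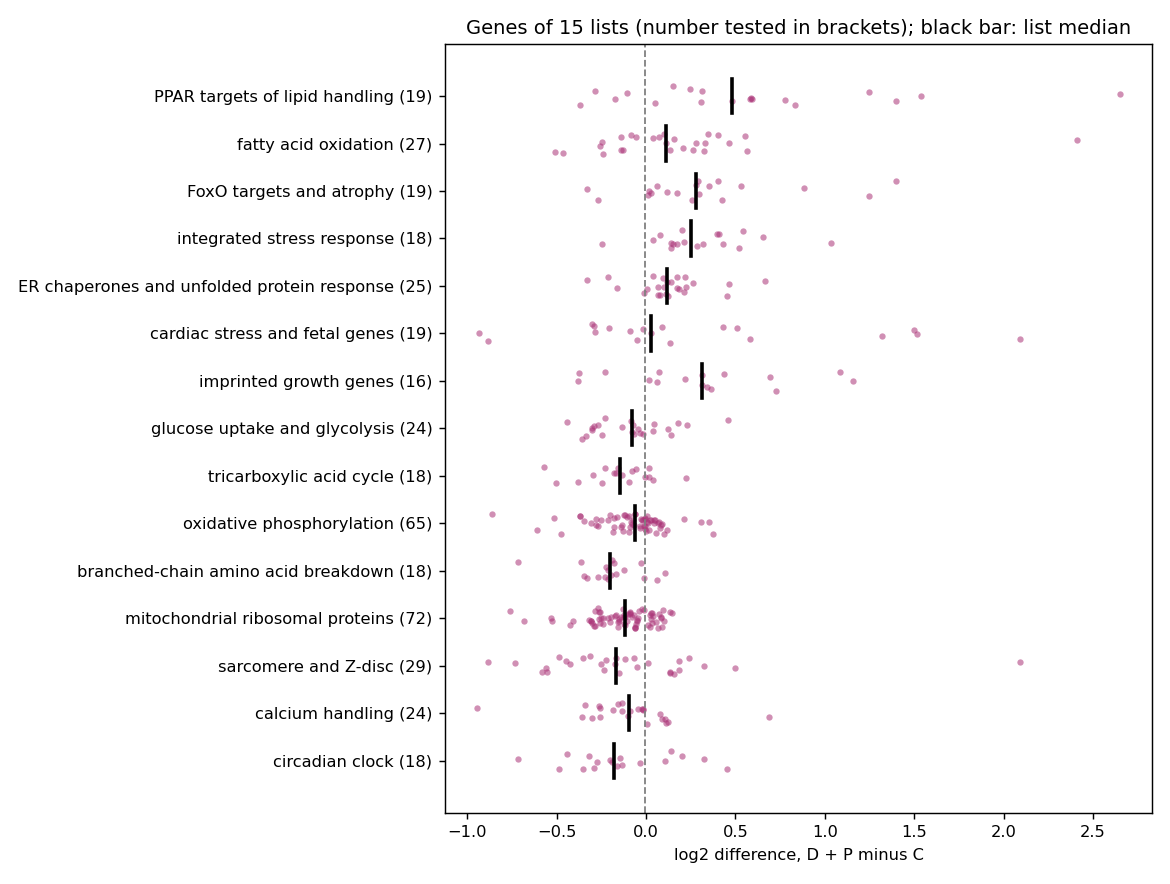
Log2 difference, D + P minus C (x axis), of the tested genes of 15 lists (rows, number tested in brackets); points are genes, black bars are list medians and the dashed line is the median of all genes with a symbol. The PPAR list has the median furthest to the right, at 0.48, and the branched-chain list the one furthest to the left, at −0.20.

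In the integrated stress response, a programme that adapts amino acid supply and translation, 17 of 18 tested genes were higher in D + P. Their median was 0.25, and it ranged from 0.14 with normexp to 0.30 without D + P replicate 1. Mthfd2, a mitochondrial folate enzyme, read 5.31, 5.01 and 4.84 in C and 5.87, 5.87 and 6.52 in D + P, 1.04 higher (95% CI 0.35 to 1.73, adjusted p = 0.659). Its groups did not overlap, with 0.90 within slide 1 and 0.96 within slide 2. Among the chaperones and unfolded protein response genes of the endoplasmic reticulum, 21 of 25 were higher, with a median of 0.12. Manf, a secreted protein of that response, was 0.67 higher (95% CI −0.02 to 1.35), against −0.24 within slide 1 and 0.03 within slide 2. Xbp1, one of its transcription factors, was 0.46 higher (95% CI 0.07 to 0.86, adjusted p = 0.787), with 1 of its 3 probes lower. In the heat-shock list 5 of 20 were higher, with a median of −0.10 that ran from −0.20 to 0.02 over the same 15 alternatives.

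Imprinted growth genes were higher for 13 of 16 tested, with a median of 0.31 (0.18 without D + P replicate 2). The non-coding RNA H19 read 9.02, 9.37 and 9.45 in C and 9.85, 10.58 and 10.88 in D + P. It was 1.16 higher (95% CI 0.58 to 1.74, adjusted p = 0.478), near the 1.19 within slide 1 and the 1.29 within slide 2. Its 3 D + P arrays were all above C. Interferon genes were mixed, with 14 of 32 higher and a median of −0.08 that ran from −0.18 to 0.08 over the alternatives. Irf7, a transcription factor of the interferon response, read 10.60, 10.33 and 10.02 in C and 11.07, 11.26 and 11.01 in D + P, 0.80 apart (95% CI 0.41 to 1.19, adjusted p = 0.475). The interferon-induced gene Ifi44 was 1.21 higher (95% CI 0.58 to 1.85, adjusted p = 0.498). For Ifi44 the within-slide differences were small, 0.29 on slide 1 and 0.30 on slide 2, while C + P was 0.92 above C across slides.

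Of genes outside these lists, Upp1, the enzyme that splits uridine, stood out with 5.50, 5.11 and 5.39 in C and 6.38, 7.17 and 7.27 in D + P. It was 1.61 higher (95% CI 1.11 to 2.10, adjusted p = 0.161), and 1.89 higher without D + P replicate 1 (adjusted p = 0.0181), with 1.82 within slide 1 and 0.87 within slide 2. Tac1, the precursor of the neuropeptide substance P, was 1.53 higher (95% CI 0.96 to 2.10, adjusted p = 0.247), with 1.43 and 1.23 within the slides, while its other probe gave 0.58. Rbp7, a retinol-binding protein of fat and endothelium, was 0.86 higher (adjusted p = 0.422), and Gpr160, an orphan receptor, 1.14 higher (adjusted p = 0.429). These 4 genes were named by a rule that asks for arrays that do not overlap, so that their D + P arrays lie above C follows from the choice. Among the lower genes, Cryba4, a lens crystallin, was 0.98 lower (95% CI −1.35 to −0.62, adjusted p = 0.247), and Ccne1, a cyclin of the start of DNA replication, was 0.90 lower (95% CI −1.26 to −0.53, adjusted p = 0.247). Several of the lower genes were not well above background in D + P, so only a bound can be given. Gpr65, a proton-sensing receptor of leukocytes, read well above background on 3 of 3 C arrays and 0 of 3 D + P arrays, and C exceeded D + P at least 1.81-fold (adjusted p = 0.247). Klra8, a natural killer cell receptor, was at least 1.95-fold lower, and Klra15 at least 1.87-fold, in the same way, but receptors of this family are near-identical and may share signal. Hunk, a kinase, was bounded at 1.53-fold lower, Akap5, an anchor of protein kinase A, at 1.36-fold, Stum at 1.11-fold and the kallikrein Klk1b5 at 1.04-fold (adjusted p = 0.247 for each), and the other Akap5 probe was 0.49 lower. These bounds say little of the size. Adam32 was well above background on 0 of 3 C arrays and 1 of 3 D + P arrays, and its 2 probes differed in sign (1.68 and −0.47), so no direction is given for it.

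Macrophage and platelet markers lay below C. None of the 10 macrophage markers was higher, their median was −0.43 (−0.22 with normexp), and their summed signal was 19123 to 22555 on the C arrays and 15144 to 16415 on the D + P arrays. Adgre1, Cd68 and C1qb, a surface receptor, a lysosomal protein and a complement subunit of these cells, were 0.72, 0.71 and 0.69 lower (adjusted p = 0.732, 0.636 and 0.72). Platelet markers were lower for each of the 7 tested, with a median of −1.19 (−0.35 with normexp). Ppbp, a platelet chemokine, read 7.00, 7.87 and 7.47 in C and 5.46, 5.53 and 4.11 in D + P, 2.42 lower (95% CI −3.34 to −1.49, adjusted p = 0.247). It was well above background on 1 of 3 D + P arrays, and D + P was 3.18 below C + P on the same slide (adjusted p = 0.0336). Clec1b and Gp9, platelet receptors, were at least 1.90-fold and 1.98-fold lower (adjusted p = 0.523 and 0.48), whereas Gp1bb, Itga2b, Tubb1 and Gp6, the last of them among the 7 tested, were not well above background on any of the 6 arrays. Lower RNA per cell and fewer cells of a type cannot be told apart in whole tissue. Red cell markers, 8 of them tested, had summed signals that overlapped, at 296440 to 352670 in C and 310190 to 313910 in D + P, and the part of blood left in the hearts was not tested.

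All 10 endothelial markers were higher in D + P, with a median of 0.24 (0.13 to 0.38 over the alternatives). Their summed signal overlapped, at 41860 to 46025 in C and 43908 to 54948 in D + P. Vwf, which carries clotting factor in these cells, was 0.59 higher (adjusted p = 0.732), Esam, a junction protein, 0.45 higher (adjusted p = 0.805) and Kdr, a receptor for vascular growth factor, 0.37 higher (adjusted p = 0.847). Of 10 fibroblast markers 8 were higher, with a median of 0.08 that was 0.23 without D + P replicate 1 and −0.04 without D + P replicate 3, and their sums did not overlap, at 95232 to 100670 in C and 104640 to 121480 in D + P. Schwann cell and neuron markers were higher for 7 of 8 tested, with a median of 0.28 (0.11 to 0.35 over the alternatives) and overlapping sums of 2079 to 2475 in C and 2247 to 2463 in D + P. Pericyte and smooth muscle markers were higher for 7 of 10, with a median of 0.10 (0.05 to 0.24 over the alternatives). The 10 cardiomyocyte markers, all measured, had sums of 1002400 to 1050300 in C and 924170 to 1070800 in D + P, which overlap, so the labelled heart muscle was measured in both groups. Their median of −0.13 turned to 0.02 under 75th percentile scaling and was −0.03 without D + P replicate 1. Skeletal muscle markers had sums of 10426 to 11934 in C and 7232 to 9775 in D + P, which did not overlap, although 4 of 8 were higher and the median of 0.03 ran from −0.15 to 0.14 over the alternatives. The lower members included Acta1 and Tnni2, a fast troponin, at 0.88 and 0.96 lower, while Actn3, Myh1 and Myh2, genes of fast skeletal fibres of which Myh2 is among the 8 tested, were not well above background on any of the 6 arrays. Epicardial and mesothelial markers were higher for all 4 tested of 10, with a median of 0.26, and their sums did not overlap, at 519 to 562 in C and 622 to 869 in D + P.

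**Figure D4:**
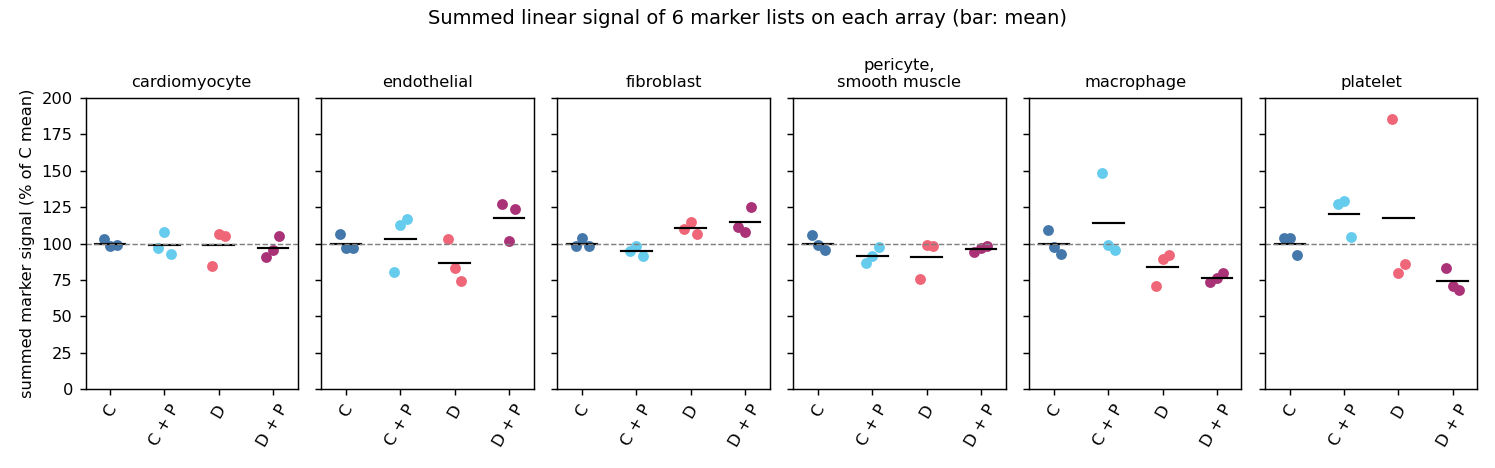
Summed linear signal of 6 marker lists on each array, as a percentage of the C mean (y axis, from 0), in the 4 groups; points are arrays and bars are means. The D + P arrays lie below the C arrays for macrophage and platelet markers and overlap them for cardiomyocyte and endothelial markers.

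The study also assayed some genes by other means, those of the PCR list in this model and the microRNA targets in a cardiomyocyte cell line, and no support is drawn from either list. Of 8 genes it measured by quantitative PCR, 7 were higher in D + P, with a median of 0.97, and Slc2a4 was lower. Rgs2, which damps signals of G protein-coupled receptors, was 0.69 higher (95% CI 0.22 to 1.16, adjusted p = 0.673), against 1.08 in D against C. Hif1a, the oxygen-sensing transcription factor, was 0.46 higher (95% CI −0.08 to 1.00), against 1.13 in D against C, and Prdx4, a peroxidase of the endoplasmic reticulum, was 0.26 higher. Of 6 microRNA targets the study assayed, 1 was higher. That gene, Igf1r, the IGF1 receptor, was 0.49 higher (95% CI 0.10 to 0.88, adjusted p = 0.743), with 3 of its 4 probes higher. Its difference ran from 0.07 to 0.56 over 26 alternatives. Mapk10, a stress-activated kinase, was 0.46 lower (95% CI −0.76 to −0.16, adjusted p = 0.631), with 1 of its 3 probes higher, and Rps6ka2, Inpp4a, Grb10 and Elk1 were 0.51, 0.29, 0.23 and 0.07 lower, that of Elk1 becoming 0.22 higher under 75th percentile scaling.

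Pargyline's targets are the enzymes made from Maoa and Maob. Maoa read 5.76, 6.06 and 5.38 in C and 6.07, 5.40 and 4.76 in D + P, overlapping groups with a difference of −0.32 (95% CI −1.02 to 0.38) that was 0.00 without D + P replicate 3 and −0.65 without D + P replicate 1. Maob, by the brighter of its 2 probes, read 9.76, 9.66 and 9.80 in C and 9.23, 9.77 and 9.83 in D + P. Its difference of −0.13 (95% CI −0.53 to 0.28) was 0.06 without D + P replicate 1 and 0.19 with normexp. Pargyline blocks the enzymes as proteins, and transcript levels do not measure that. Of 17 tested genes of amine handling, 9 were higher, with a median of 0.01 that ran from −0.08 to 0.14 over the alternatives. Slc22a3, a transporter that clears noradrenaline, read 7.20, 7.28 and 7.27 in C and 6.69, 6.69 and 6.54 in D + P, 0.61 lower (95% CI −0.94 to −0.27, adjusted p = 0.539), with arrays that did not overlap. Among adrenergic genes 11 of 21 were higher, Adcy5, an adenylyl cyclase of the heart, by 0.66 (95% CI 0.33 to 1.00, adjusted p = 0.478). Adra1a, an adrenergic receptor, was 0.55 lower (95% CI −0.96 to −0.13, adjusted p = 0.732) and well above background on 1 of 3 D + P arrays.

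Whether D + P lay nearer to C than D did is a comparison of D + P with D, which again crosses slides. No probe passed there (limma, smallest adjusted p 0.075, 4099 probes at an unadjusted p under 0.05), 1 probe passed without D + P replicate 1 and 3 without D + P replicate 3, and the methods' t-test gave 1 after Benjamini-Hochberg adjustment. The genes described above varied in this comparison. The difference was −0.18 for Nppa (95% CI −0.59 to 0.23), −0.33 for Nmrk2 (95% CI −0.73 to 0.07), 0.04 for Acot1 (95% CI −0.74 to 0.82) and −0.05 for Txnip (95% CI −0.67 to 0.56). It was 0.48 for Angptl4 (95% CI −0.48 to 1.43) and 0.81 for Myh7 (95% CI −0.35 to 1.97), both further from C in D + P than in D by their means. Ppbp was also further from C, 1.37 lower in D + P than in D (95% CI −2.30 to −0.45, adjusted p = 0.233). The intervals are wide, and none of them shows that D + P and D were alike. For Nppb it was −0.96 (95% CI −1.76 to −0.15, adjusted p = 0.298), for Rgs2 −0.39 (95% CI −0.86 to 0.08) and for Hif1a −0.67 (95% CI −1.21 to −0.13, adjusted p = 0.287). Nppb, Rgs2 and Hif1a were nearer to C in D + P than in D by their means, and none of the differences passed.

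Some signals separated the 2 slides, and with them the mice with and without pargyline, since all mice on slide 2 and none on slide 1 had received it. Slide and pargyline cannot be told apart for these signals. An unnamed probe at mm9 chr1:138404203-138404262 read 9.28 to 9.37 in C and 9.22 to 9.75 in D, both on slide 1, and 8.0 to 8.10 in C + P and 7.87 to 8.19 in D + P, both on slide 2. Its difference of −1.29 in D + P against C had the third smallest p (adjusted p = 0.0993), beside 0.12 within slide 1 and −0.02 within slide 2. A second unnamed probe, at mm9 chrX:37360365-37360424, was 1.65 lower in D + P than in C, with 0.19 and −0.02 within the slides. Both were chosen for this pattern after their values were seen. In immediate early genes, the median was −0.02 in D + P against C (−0.10 to 0.03 over the alternatives), 1.19 between C + P and C, and −1.25 within slide 2. Fos, the best known of them, was well above background on 3 of 3 C + P arrays, 1 of 3 C arrays and 0 of 3 D + P arrays. The C + P group therefore stood apart for these genes, and within-slide values on slide 2 carry that.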

How the data were processed

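RNA of 12 hearts, 1 mouse per array, was labelled with Cy3 (200 ng) and hybridised to 1-colour Agilent mouse arrays. Per the file headers, the deposited scanner files hold intensity values made with Feature Extraction 12.0.0.7, which subtracts background and detrends each array without normalising between arrays, and probe positions in mm9; the version differs from that in the study's methods. The authors also deposited a table of quantile normalised linear intensities for 47757 spots, used as an alternative (rank correlation 1 with the same array's scanner values, at most 0.9643 with another's).

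Here the processed intensities of non-control probes were quantile normalised over the 12 arrays on the log2 scale (the log2 values were computed from the deposited intensities), with repeated spots averaged and outlier-flagged spots missing. Of 56605 probes, 30857 were tested, those flagged positive and significant in each group on 50% or more of its arrays; 2.039% of their values were not positive and significant and were kept. limma 3.58.1 (R 4.3.3) fitted 1 mean per group to all 12 arrays (8 residual and 2.621 prior degrees of freedom), with Benjamini-Hochberg adjustment over all tested probes and a threshold of 0.05. Intervals are 95% confidence intervals. RefSeq names were matched for 21177 tested probes, of which 942 were renamed. Lists hold 1 probe per gene, the one with the highest mean over all arrays, for 16453 genes. At least N-fold marks a gene not well above background in 1 group, set against the lowest signals well above background there. The groups and gene lists were chosen with earlier results of these data known. Named genes were, since none passed, the 10 in each direction with the largest moderated t and arrays that did not overlap, the 3 largest differences of each list, tested genes of the quantitative PCR, microRNA target and MAO lists, and Nppa and Nmrk2, known from earlier results; Lipe, Plin2, Fabp4, Nr2f2, Npr3, the myosin light chains, Myh6, Lpl, Fabp3, Acsl1, Trim63 and Fbxo32 were added after their values were seen. Some genes that this rule names are not reported here. The replicates are different mice, so the limma p-values rest on the spread between animals. That spread is pooled over all 4 groups of 3 and is not that of C and D + P alone. The number of arrays limits the precision. Normalisation, background correction, filter, spread model, array weights, blocks, the methods' t-test and leaving out each array were varied.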

Additional observations from a re-analysis of the deposited data

How the results depend on the processing

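The count of probes past the threshold in D + P against C was 0 with 75th percentile scaling, with dim values set to missing, with only the 6 arrays, with the slide column as a block and with the methods' t-test after either adjustment. It was 9 with array weights, 7 with the authors' series table, 7 with no filter, 8 with probes positive and significant in C or D + P, 4 with a trended and robust spread model, 3 with probes well above background in every group and 1 with normexp background correction. It ran from 0 to 5 when 1 array was left out, the highest without D + P replicate 1. D + P against D gave 8 with the authors' series table, 1 with the methods' t-test after either adjustment, 9 with no filter, 2 with normexp, 11 with probes positive and significant in C or D + P, 2 with the trended and robust model, 3 with probes well above background in every group, and 0 to 3 when 1 array was left out. The cause of these shifts was not tested. Nppa passed under 6 alternatives, at 1.55 to 1.59, Nmrk2 under 7, at 1.06 to 1.51, and Upp1 under 2, at 1.73 to 1.89. Under other alternatives some differences were much smaller, down to 0.924 for Upp1, 0.879 for Tac1, 0.435 for Mthfd2, 0.289 for Adcy5 and −0.309 for Ccne1. The signs of these genes did not change. Of the unnamed probes that differ between the slides, the one at −1.29 passed under 4 and the one at −1.65 under 2. Another unnamed probe, outside the main test, passed under 4, and Bpifb5, Gm2582 and a further unnamed probe, also outside it, under 3 each. Of the calls with no filter, with the authors' series table and with probes positive and significant in C or D + P, only 2 of 7, 3 of 7 and 2 of 8 were probes of the main test. Elk1 reversed to 0.2204 with 75th percentile scaling and Maob to 0.1914 with normexp. Leaving out 1 array gave −0.6488 to 0.001396 for Maoa and −0.2415 to 0.05912 for Maob.

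Same-numbered replicates are different mice, and their deviations correlated at −0.0151, −0.0268 and −0.172, so no pairing was assumed. With the replicate block, 0 probes passed in D + P against C (1789 at an unadjusted p under 0.05, smallest adjusted p 0.2517) and 0 in D + P against D (3958).

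With 3 arrays per group the median confidence half-width of 0.586 log2 limits the precision of every value given. Slide, scan and row cannot be told apart from the comparison, and neither can streptozotocin from pargyline within it.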
